A study of Mus musculus with 4 samples.

Results

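The genes described here are 10 outputs and feedback inhibitors of ERK signalling, namely *Dusp4*, *Dusp5*, *Dusp6*, *Spry1*, *Spry2*, *Spry4*, *Spred1*, *Spred2*, *Etv4* and *Etv5*. They were picked by gene symbol for their known place in the pathway, and all 10 were found among the 53465 genes of the deposited expression table. The libraries came from mouse female germline stem cells (FGSCs), a line of cultured ovarian cells that the labels call germ stem cells, a name that the marker genes below go against. A control shRNA (shNC, 2 libraries) or an shRNA against *Nat10* (shNAT10, 2 libraries) had been introduced with lentivirus, followed by drug selection according to the methods. *Nat10* encodes the acetyltransferase that writes N4-acetylcytidine (ac4C) on RNA. The labels give no age or strain for the cultures. The study calls the libraries of a group biological replicates, and the labels do not say whether they came from separate infections, so p-values measure the spread between these libraries.

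ERK is the last kinase of a relay in which growth factor receptors activate RAS, RAS activates RAF, RAF activates MEK and MEK activates ERK. Active ERK induces transcription of its own brakes. DUSP4, DUSP5 and DUSP6 are phosphatases that remove the activating phosphates from ERK, while Sprouty and SPRED proteins act further up, between the receptor and RAF. ETV4 and ETV5 are ETS family transcription factors of the PEA3 group whose genes are induced by FGF and RET signalling. In spermatogonial stem cells *Etv5* is needed for self-renewal downstream of GDNF, and mRNA levels of this set of genes are widely used as a readout of ERK output.

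The level of each gene is given in FPKM, as the authors deposited it. Here FPKM is fragments scaled for exon length and by a divisor of each library. The divisors recovered from the values were 11745621 and 11871408 under shNC and 12551802 and 15330630 under shNAT10. They were below the recovered totals in both shNC libraries and above them in both shNAT10 libraries, so they were not these totals. Median-ratio factors of the FPKM were 1.00 in each library, so the deposited values were already equalised by this measure. Differences are log2 fold changes of FPKM + 0.1, shNAT10 over shNC, with the standard error (SE) from limma. Genes were called when the fold change exceeded 1.2 with unadjusted p at or under 0.05. The Benjamini-Hochberg adjusted p from limma, over the 20116 genes whose mean reached 0.1 FPKM, is given beside it. All 10 genes passed this filter on low values. Recovered totals were 11057922 to 14902432 fragments per library, and between 7454426 and 9420923 of these fell on protein-coding genes. Loci related to rRNA took 45.4% and 35.1% of the fragments under shNC against 23.2% and 25.1% under shNAT10. The list of these loci includes *Gm26917* and *Gm42418*, lncRNAs that the paper reports as reduced in shNAT10 cells by qPCR. With FPKM rescaled to the same total without any locus of this list, *Etv5* and *Spry4* were still called lower and *Spry2* higher. With 2 libraries against 2, an exact two-sided permutation test of a single gene cannot give a p under 0.3333, and every gene whose groups do not overlap has this p.

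*Nat10* itself had 7.79 and 5.42 FPKM under shNC against 2.95 and 3.04 FPKM under shNAT10. The shNAT10 values were both under the shNC values, with a log2 fold change of -1.09 (SE 0.21, adjusted p = 0.123 by limma), which matches the labels. The call on *Nat10* was lost without shNAT10 replicate 1 (log2 fold change -1.07) and without shNAT10 replicate 2 (-1.11). Defining germ cell markers were at or near 0, since *Pou5f1*, *Dppa3* and *Dazl* were listed at 0 in all 4 libraries and *Ddx4* was above 0 in 1 library only. The 8 germ cell markers summed to 9.91 and 22.7 FPKM under shNC against 27.8 and 34.4 FPKM under shNAT10, almost all of it *Ifitm3*, which was not called by limma and had an adjusted p of 0.00363 by limma-voom. In contrast, the 7 pan-leukocyte markers summed to 508 and 564 FPKM under shNC against 402 and 423 FPKM under shNAT10, and 5 of them were called lower. The 10 mast cell markers summed to between 313 and 324 FPKM, mostly *Cpa3*, with *Tpsb2* and *Fcer1a* at 0. The 6 macrophage markers summed to 47.7 and 52.5 FPKM under shNC against 37.1 and 41.8 FPKM under shNAT10. Almost all of this was *Adgre1*, which was called lower (log2 fold change -0.37). *Csf1r* (0.24) and *Cd68* (-0.31) were not called, and *C1qa* was at 0. The 6 fibroblast and stroma markers, mostly *Dcn*, summed to 51.7 and 44.8 FPKM under shNC against 60.7 and 51.4 FPKM under shNAT10. These sums overlapped, and 2 of the 5 markers tested were called higher. All these marker levels go against the label of a germ stem cell. The paper itself reports RT-PCR of *Oct4*, *Ddx4*, *Fragilis* and *Blimp1*, and staining of DDX4 and OCT4, in its FGSCs. The cells behind the values below are named FGSCs after the study, not by their marker levels here. The part of these shifts in leukocyte, macrophage, fibroblast and germ cell markers in the results below was not tested. In bulk RNA a change in the number of cells of a type and a change in RNA per cell cannot be told apart.

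Among the 10 genes, *Etv5* and *Spry4* were called lower in shNAT10 (2 of 10, where 7.83% of all genes tested were called lower) and *Spry2* was called higher (1 of 10, where 8.41% of all genes were called higher). Over all genes these are 1691 called higher and 1576 lower, against 2043 higher and 1243 lower when libraries were scaled to the same total of protein-coding fragments, with the same 3 genes of the set called. The other 7 genes, among them *Etv4*, *Dusp6* and *Dusp5*, did not pass the threshold. None (0 of 10) had an adjusted p under 0.05 by limma, where 88 of all genes had, and 3 had an unadjusted p under 0.05. By limma-voom on recovered fragments, *Etv5* (adjusted p = 0.000889) and *Spry4* (adjusted p = 0.00764) passed an adjusted p of 0.05, in a test that put 3.65% of all genes below this limit as lower. The median log2 fold change of the 10 genes was -0.06, beside 0.01 for all genes, with 5 genes above 0 and 5 below.

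Both shNAT10 libraries lay above both shNC libraries for *Spry1* and *Spry2* (2 of 10, where 23.9% of all genes did so) and below them for *Etv5*, *Spry4* and *Dusp6* (3 of 10, where 24.1% of all genes did so). For the other 5 genes the groups overlapped. The set as a whole did not move in a single direction. Summed over the 10 genes, the level was 60.2 and 57.8 FPKM under shNC against 55.8 and 53.9 FPKM under shNAT10.

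**Figure D1:**
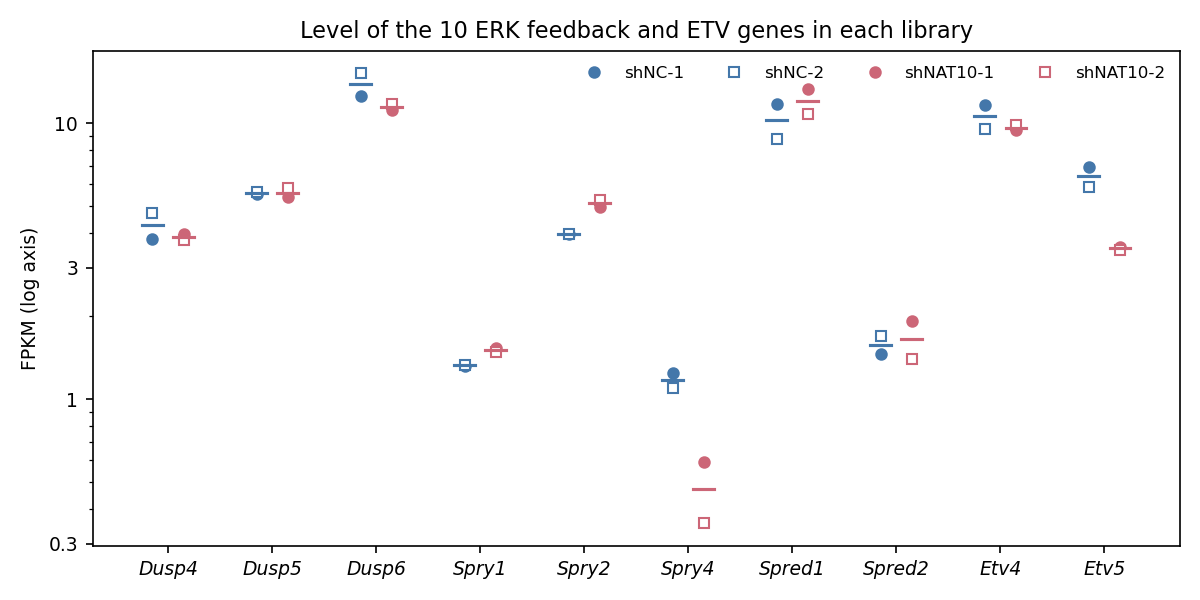
FPKM of each of the 10 genes in each library on a log axis, shNC in blue and shNAT10 in red, with filled circles for replicate 1, open squares for replicate 2 and a short bar for the mean of the 2 libraries. *Etv5* and *Spry4* sit lower in both shNAT10 libraries than in both shNC libraries, *Spry2* sits higher, and *Dusp5* and *Etv4* overlap between the groups.

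*Etv5* showed the clearest difference of the set. In the GRCm38 (mm10) genome it lies on chromosome 16, minus strand, between positions 22381309 and 22439719. Its level was 6.95 FPKM in shNC-1, 5.89 FPKM in shNC-2, 3.57 FPKM in shNAT10-1 and 3.47 FPKM in shNAT10-2. The shNAT10 libraries were close to each other and well below either shNC library. The mean was 6.42 ± 0.749 FPKM in shNC and 3.52 ± 0.0757 FPKM in shNAT10 (SD, n = 2 each). The log2 fold change was -0.84 (SE 0.14; p = 0.00221 and adjusted p = 0.102 from limma against an exact permutation p of 0.3333). The call held with any 1 library left out, with log2 fold changes between -0.96 and -0.73, and *Etv5* was the only one of the 10 genes for which this was so. It rested on 335 and 287 fragments under shNC and on 184 and 218 fragments under shNAT10.

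*Etv4*, the close relative of *Etv5*, has a similar DNA-binding domain and is often induced with it. It lies on the minus strand of chromosome 11 between positions 101769742 and 101785371. Its level was 11.6 and 9.53 FPKM under shNC against 9.42 and 9.83 FPKM under shNAT10, so that shNAT10-2 lay between the shNC libraries. The log2 fold change of *Etv4* was -0.13 (SE 0.13, adjusted p = 0.667 by limma), with a 95% interval from -0.48 to 0.22. Without shNC replicate 1 the value was 0.01 and without shNC replicate 2 it was -0.27, which passed the threshold. Within a library, *Etv5* stood at 0.598 and 0.619 of the level of *Etv4* in shNC and at 0.379 and 0.352 in shNAT10. The ratio was lower under shNAT10 without overlap between groups (log2 difference -0.73, exact permutation p = 0.3333, the smallest that 2 against 2 libraries allow). Since both genes are read in the same library, the ratio does not depend on how the libraries were scaled.

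*Etv1*, the third gene of the PEA3 group, went the other way at a low level. It had 0.397 and 0.304 FPKM under shNC against 0.701 and 0.731 FPKM under shNAT10, and was called higher (log2 fold change 0.86, SE 0.31, adjusted p = 0.283 by limma). The call on *Etv1* held in only 1 of the 4 fits that leave out a library, with values from 0.72 to 1.01. In total, *Etv4* and *Etv5* together summed to 18.6 and 15.4 FPKM under shNC against 13.0 and 13.3 FPKM under shNAT10, and *Etv4* supplied most of this sum in every library.

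Promoter sequence was available for 7 of the 10 genes in 8 windows, taken from RefSeq on GRCm38.p6 and searched over the 250 bases before each annotated start. *Dusp4*, *Etv4* and *Spry4* had no entry. The motifs were chosen after the sequences and the values of the genes had been seen. They were TGAATG, the core of the octamers bound by the repressor Capicua (CIC), the CArG box bound by SRF, and TGANTCA (AP-1), TGACGTCA (CREB and ATF) and CCGGAA (ETS), each on both strands. CIC is phosphorylated and relieved by ERK and is known to repress *Etv5*, *Etv4* and *Dusp6*, whereas SRF drives immediate response genes together with ELK factors. *Etv5* has 2 annotated starts. The windows of *Etv5*, which was called lower, are shown first, then those of *Dusp5* and *Dusp6*, which hold motifs and were not called, and that of *Spry2*, which was called higher. Capitals mark TGAATG or its reverse complement CATTCA, and in *Dusp5* also the CArG boxes.

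Etv5, upstream start (chr16:22439571-22439820, minus strand): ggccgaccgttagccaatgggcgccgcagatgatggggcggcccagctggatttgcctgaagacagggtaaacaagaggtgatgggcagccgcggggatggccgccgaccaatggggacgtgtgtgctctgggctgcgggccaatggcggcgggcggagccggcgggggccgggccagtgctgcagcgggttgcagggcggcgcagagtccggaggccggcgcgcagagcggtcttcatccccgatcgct
Etv5, downstream start (chr16:22438369-22438618, minus strand): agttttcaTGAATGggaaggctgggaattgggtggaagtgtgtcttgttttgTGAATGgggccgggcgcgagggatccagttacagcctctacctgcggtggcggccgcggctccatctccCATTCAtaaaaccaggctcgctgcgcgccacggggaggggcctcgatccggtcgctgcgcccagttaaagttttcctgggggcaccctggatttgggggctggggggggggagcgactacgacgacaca
Dusp5 (chr19:53528895-53529144, plus strand): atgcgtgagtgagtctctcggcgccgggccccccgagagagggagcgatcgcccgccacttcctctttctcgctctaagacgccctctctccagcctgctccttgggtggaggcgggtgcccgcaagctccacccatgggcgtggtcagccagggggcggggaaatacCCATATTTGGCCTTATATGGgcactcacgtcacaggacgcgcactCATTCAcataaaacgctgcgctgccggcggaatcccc
Dusp6 (chr10:99262981-99263230, plus strand): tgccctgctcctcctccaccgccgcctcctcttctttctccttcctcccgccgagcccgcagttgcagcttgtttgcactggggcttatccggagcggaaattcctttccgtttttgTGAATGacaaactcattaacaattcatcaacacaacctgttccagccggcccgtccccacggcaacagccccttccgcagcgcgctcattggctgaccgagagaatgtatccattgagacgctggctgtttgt
Spry2 (chr14:105896820-105897069, minus strand): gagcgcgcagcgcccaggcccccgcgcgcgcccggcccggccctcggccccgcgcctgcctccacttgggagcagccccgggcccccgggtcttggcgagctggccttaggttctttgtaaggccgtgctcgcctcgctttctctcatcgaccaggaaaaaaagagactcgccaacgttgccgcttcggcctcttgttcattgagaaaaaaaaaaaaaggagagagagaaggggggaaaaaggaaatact

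The downstream window of *Etv5* held TGAATG 3 times, with the first bases 242, 198 and 129 bases before the start, and the upstream window held none. Only this core was searched for, so these are not counts of full octamers, and binding of CIC was not tested. Of all 32851 windows of this length, 10.9% held TGAATG at least once and 0.131% at least 3 times. *Dusp6* held it once, 133 bases before the start, and *Dusp5* once, 37 bases before the start. *Dusp5* also held a pair of adjoining CArG boxes, CCATATTTGG and CCTTATATGG, 82 and 72 bases before the start. At least 1 CArG box was found in 1.47% of all windows and at least 2 in 0.0183%. The windows of *Spry1*, *Spry2*, *Spred1* and *Spred2* held none of the 5 motifs. TGANTCA, TGACGTCA and CCGGAA were in none of the 8 windows, against 6.75%, 1.55% and 12.03% of all windows. These letters describe the windows only, and a gene-level FPKM does not tell which start of *Etv5* was used.

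Of the Sprouty genes of the set, *Spry2*, the best expressed, was called higher while *Spry4* was called lower and *Spry1* did not pass the threshold. *Spry2*, on the minus strand of chromosome 14 between positions 105891947 and 105896819, had 3.96 FPKM in both shNC libraries and 4.96 and 5.28 FPKM in shNAT10. The shNC libraries differed by 0.000557 on the log2 scale, far less than the median gap of 0.27 between these libraries over all genes. The log2 fold change of *Spry2* was 0.36 (SE 0.12; p = 0.0306 and adjusted p = 0.25 from limma against an exact permutation p of 0.3333). This call was weak. It was lost with each of the 4 libraries left out in turn (0.36 without either shNC replicate, 0.41 without shNAT10 replicate 1 and 0.32 without shNAT10 replicate 2), without the variance trend, with the replicate block and with limma-voom (adjusted p = 0.338 by limma-voom).

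*Spry1* lies on the plus strand of chromosome 3 between positions 37639947 and 37644598. It had 1.32 and 1.33 FPKM under shNC against 1.54 and 1.48 FPKM under shNAT10, a log2 fold change of 0.17 (SE 0.18, adjusted p = 0.664 by limma) with a 95% interval from -0.30 to 0.65. The groups did not overlap, but the gene rested on 45 to 66 fragments per library. An antisense gene, *Gm42922*, shares 710 nt of exon with *Spry1*. It had between 0.0942 and 0.328 FPKM, and no source states that counting was stranded, so reads of the pair cannot be told apart. *Spry3* stood at 0.0979 to 0.136 FPKM and had a log2 fold change of -0.01 (SE 0.59, by limma).

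*Spry4* had the largest fold change of the 10 genes and the lowest level. It lies on the minus strand of chromosome 18 between positions 38586247 and 38601415. Its level was 1.24 FPKM in shNC-1, 1.10 FPKM in shNC-2, 0.591 FPKM in shNAT10-1 and 0.356 FPKM in shNAT10-2. Both shNAT10 libraries were low, but they were 0.60 apart on the log2 scale, more than the shNC libraries (0.16). Its fragments numbered 69 and 62 in shNC and 35 and 26 in shNAT10, 131 against 61 in all. The log2 fold change was -1.18 (SE 0.32; p = 0.016 and adjusted p = 0.205 from limma against an exact permutation p of 0.3333), with a 95% interval from -2.02 to -0.34. The call was lost without shNC replicate 1 (-1.10), without shNC replicate 2 (-1.26) and without shNAT10 replicate 2 (-0.88). With a pseudocount of 1 in place of 0.1 the value was -0.56, because a larger pseudocount shrinks the change of a low gene.

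Within a library, *Spry4* stood at 0.314 and 0.279 of the level of *Spry2* in shNC and at 0.119 and 0.0673 in shNAT10. This ratio changed by -1.73 on the log2 scale (exact permutation p = 0.3333), more than for any other of the 7 pairs of relatives compared. The ratio of *Spry1* to *Spry2* changed by -0.19. Summed over *Spry1*, *Spry2* and *Spry4*, the level was 6.52 and 6.39 FPKM under shNC against 7.09 and 7.12 FPKM under shNAT10.

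**Figure D2:**
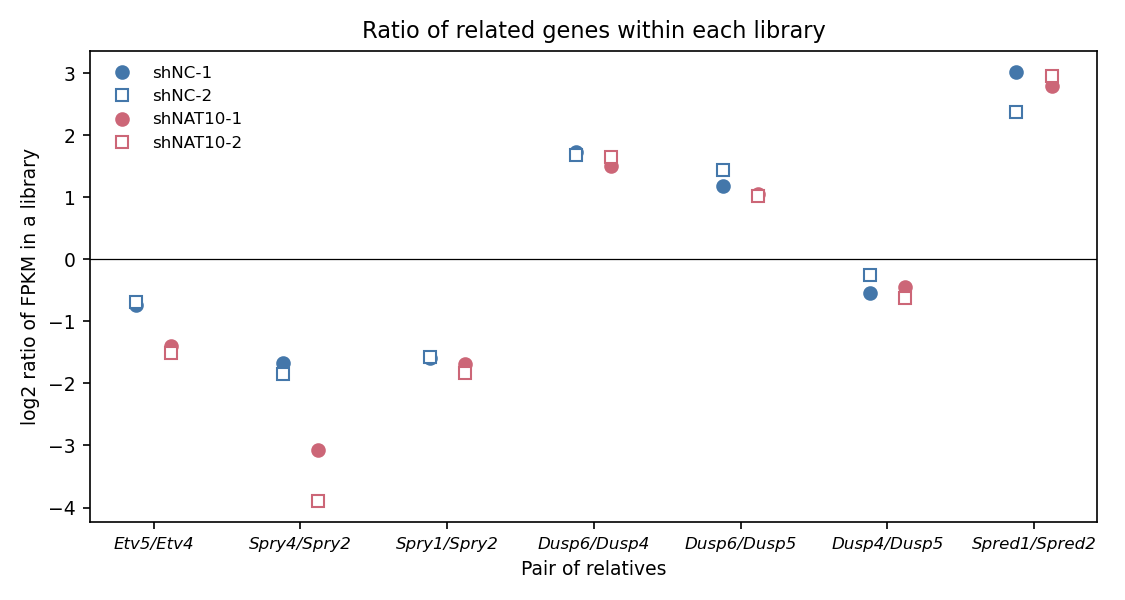
Log2 of the ratio of 2 related genes within each library, for 7 pairs on the horizontal axis, with shNC in blue, shNAT10 in red, filled circles for replicate 1 and open squares for replicate 2. The ratios of *Etv5* to *Etv4* and of *Spry4* to *Spry2* are lower in both shNAT10 libraries (log2 differences -0.73 and -1.73), while the ratios of *Dusp4* to *Dusp5* and of *Spred1* to *Spred2* overlap.

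The SPRED genes, which encode membrane proteins that bring the RAS inhibitor neurofibromin to RAS, did not pass the threshold. *Spred1*, on the plus strand of chromosome 2 between positions 117121374 and 117182279, had 11.8 and 8.77 FPKM under shNC against 13.3 and 10.8 FPKM under shNAT10. The libraries within a group differed by 0.42 (shNC) and 0.30 (shNAT10) on the log2 scale, more than the groups, and the log2 fold change was 0.23 (SE 0.19, adjusted p = 0.588 by limma; 95% interval from -0.27 to 0.74). *Spred1* had the most fragments of the set, 3895 in all. *Spred2*, on the plus strand of chromosome 11 between positions 19924375 and 20024026, had 1.46 and 1.70 FPKM under shNC against 1.91 and 1.40 FPKM under shNAT10 (log2 fold change 0.06, SE 0.23, adjusted p = 0.93 by limma). *Spred3* had between 1.60 and 2.13 FPKM and a log2 fold change of 0.06. *Nf1*, which encodes neurofibromin, was not called either (log2 fold change -0.03).

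None of the ERK phosphatase genes of the set passed the threshold. *Dusp6*, which encodes a cytoplasmic phosphatase specific for ERK, lies on the plus strand of chromosome 10 between positions 99263231 and 99267489. It had 12.6 and 15.2 FPKM under shNC against 11.1 and 11.8 FPKM under shNAT10. The shNAT10 libraries were both lower than the lower shNC library. The log2 fold change was -0.27 (SE 0.13; p = 0.0956 and adjusted p = 0.393 from limma against an exact permutation p of 0.3333), and without shNC replicate 1 it was -0.40 and passed the threshold.

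*Dusp4*, which encodes a nuclear phosphatase, lies on the plus strand of chromosome 8 between positions 34807297 and 34819894. It had 3.79 and 4.73 FPKM under shNC against 3.95 and 3.76 FPKM under shNAT10. The groups overlapped, with a log2 fold change of -0.13 (SE 0.16, adjusted p = 0.716 by limma) that was 0.02 without shNC replicate 2. *Dusp5*, which encodes a nuclear phosphatase that also anchors ERK, lies on the plus strand of chromosome 19 between positions 53529109 and 53542431. Its level was the steadiest of the set, with 5.54 and 5.62 FPKM under shNC against 5.38 and 5.80 FPKM under shNAT10. The log2 fold change of *Dusp5* was 0.00155 (SE 0.11, adjusted p = 0.996 by limma), with a 95% interval from -0.30 to 0.30. An antisense gene of the annotation overlaps 547 nt of its exons and was not analysed here. *Dusp4*, *Dusp5* and *Dusp6* summed to 21.9 and 25.5 FPKM under shNC against 20.5 and 21.3 FPKM under shNAT10.

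**Figure D3:**
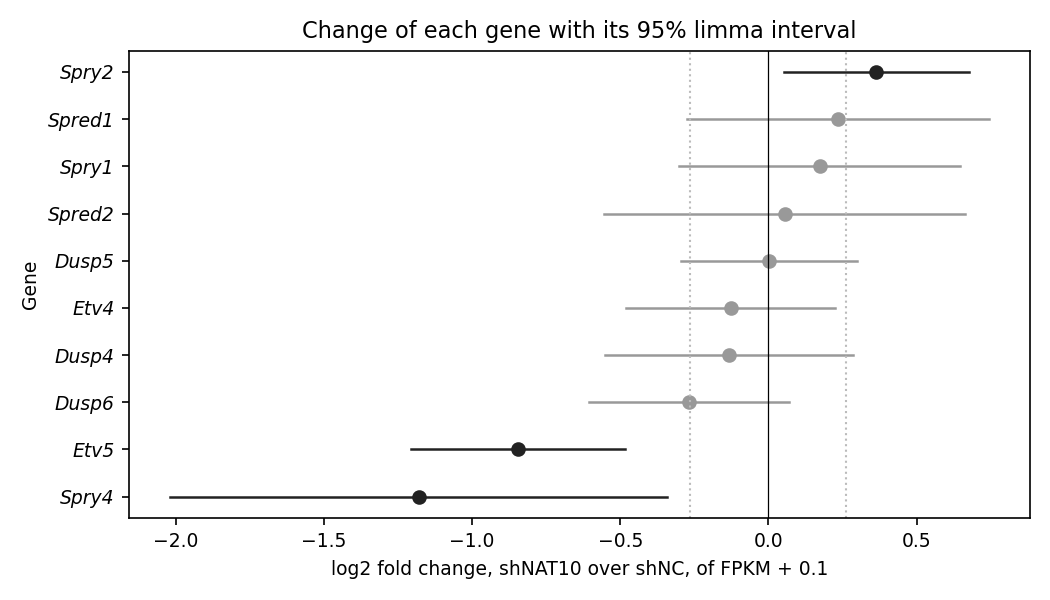
Log2 fold change of each gene, shNAT10 over shNC, on the scale of FPKM + 0.1, with its 95% limma interval as a line; black marks the 3 genes past the threshold, grey the other 7, and dotted lines a fold change of 1.2 in either direction. *Spry4* (-1.18) and *Etv5* (-0.84) lie to the left and *Spry2* (0.36) to the right, while the intervals of the other genes cross 0.

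Other phosphatases of the same family were read from a list kept apart from the 10 genes. *Dusp1* and *Dusp2*, inducible nuclear phosphatases that act on several MAP kinases, were called lower. *Dusp1* fell from 6.19 and 6.34 FPKM under shNC to 4.46 and 4.18 FPKM under shNAT10 (log2 fold change -0.53, SE 0.11, adjusted p = 0.147 by limma). *Dusp2* fell from 6.12 and 7.07 FPKM under shNC to 4.02 and 3.42 FPKM under shNAT10 (log2 fold change -0.81, SE 0.15, adjusted p = 0.121 by limma). Both calls held with any 1 library left out. *Dusp7*, the cytoplasmic relative of *Dusp6*, had 8.35 and 4.82 FPKM under shNC against 7.60 and 6.53 FPKM under shNAT10, and its groups overlapped. *Dusp10* (log2 fold change 0.19), *Dusp16* (-0.02) and *Dusp8* (-0.45) act mainly on JNK and p38, and none of them passed the threshold. *Dusp9* was above 0 in 1 library only, with 1 fragment.

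By level, averaged over the 4 libraries, *Dusp6* (12.7 FPKM), *Spred1* (11.1 FPKM) and *Etv4* (10.1 FPKM) led. *Dusp5* (5.59 FPKM), *Etv5* (4.97 FPKM), *Spry2* (4.54 FPKM) and *Dusp4* (4.06 FPKM) came next, and *Spred2* (1.62 FPKM), *Spry1* (1.42 FPKM) and *Spry4* (0.823 FPKM) were lowest. *Dusp6* stood at the 85.5th percentile of the genes tested and *Spry4* at the 36.3rd. Ranges over libraries were apart between *Etv4* and *Dusp5*, between *Dusp4* and *Spred2* and between *Spry1* and *Spry4*. All other neighbours in this order overlapped, so their order is not settled. *Etv5* stood 4th in shNC and 7th in shNAT10, below *Spry2* and *Dusp4*, and no other gene of the set moved by more than 2 places.

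The genes with the profile most like each called gene over the 4 libraries were found by the root-mean-square difference of centred log2 values, among genes averaging 1 FPKM or more. For *Etv5* they were *Herpud1* (difference 0.0136), *Nupr1* (0.0269) and *Slc35c1* (0.0463). For *Spry2* they were *Ccdc167* (0.00688), *Psmb8* (0.0106) and *Ppig* (0.0112). For *Spry4* the nearest were *Gm12276* (0.0952), *Tcea1-ps1* (0.113) and *Gm27326* (0.12), none as close as for *Etv5* and *Spry2*. With 4 libraries many genes share such a profile.

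The rest of the pathway was read from 9 lists with 105 genes, of which 91 were tested. Of these, 9 were called higher and 11 lower (9.89% and 12.1%, against 8.41% and 7.83% of all genes), and their median log2 fold change was -0.00267. An adjusted p under 0.05 was reached by 3 of the 91 with limma, where 88 of all 20116 genes did, and by 13 with limma-voom, where 1582 of all 20077 genes did. The 3 genes were *Ccnd1*, *Ereg* and *Fgf7*, and 0 of all genes passed by limma with either other pseudocount, with no filter, without the variance trend, with the replicate block or with any 1 library left out. Of the 8 other output and feedback genes that were tested, *Ccnd1* was called higher, and *Egr1* and *Ier3* were called lower. *Ccnd1*, which encodes cyclin D1, rose from 32.5 and 29.2 FPKM under shNC to 60.9 and 59.8 FPKM under shNAT10 (log2 fold change 0.97, SE 0.09, adjusted p = 0.0489 by limma). *Egr1*, an immediate early transcription factor gene, had 1.67 and 1.99 FPKM under shNC against 0.444 and 0.931 FPKM under shNAT10 (log2 fold change -1.36, SE 0.37, adjusted p = 0.209 by limma). *Ier3* went from 15.9 and 22.7 FPKM under shNC to 12.8 and 13.2 FPKM under shNAT10 (log2 fold change -0.54). The receptor feedback inhibitor genes *Errfi1* (0.14) and *Il17rd* (0.24), and *Fosl1* (-0.08), *Phlda1* (-0.21) and *Epha2* (-0.15), did not pass the threshold.

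Of the ligand genes, 13 of 18 were tested, 2 were called higher (15.4%) and 1 lower (7.69%), where 8.41% and 7.83% of all genes were. *Ereg*, which encodes the EGF receptor ligand epiregulin, rose from 3.26 and 3.55 FPKM under shNC to 10.6 and 8.94 FPKM under shNAT10 (log2 fold change 1.49, SE 0.14, adjusted p = 0.0489 by limma). *Fgf7* rose from 6.16 and 5.26 FPKM under shNC to 13.7 and 13.8 FPKM under shNAT10 (log2 fold change 1.26, SE 0.12, adjusted p = 0.0498 by limma). *Hbegf* was called lower, from 6.03 and 6.32 FPKM under shNC to 4.13 and 4.70 FPKM under shNAT10 (log2 fold change -0.48). *Kitl*, the ligand of KIT, had the highest mean of the list and was not called (0.18).

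Of the receptor genes, *Kit* had the highest level. It fell from 24.5 and 21.2 FPKM under shNC to 14.5 and 15.6 FPKM under shNAT10 (log2 fold change -0.60, SE 0.11, adjusted p = 0.123 by limma). *Kit* is also on the list of mast cell markers, where *Gata2* was called lower too and *Ms4a2* was called higher. *Pdgfra* (log2 fold change 0.83, SE 0.17, adjusted p = 0.132 by limma) and *Met* (0.62) were called higher, and *Pdgfra* is also on the list of fibroblast markers, where *Col3a1* was called higher too, *Col1a1* (-0.07), *Col1a2* (-0.06) and *Dcn* (0.09) were not called and *Lum* was at 0. Of the 17 receptor genes 12 were tested, and *Ret*, the GDNF receptor upstream of *Etv5* in germline stem cells, was below the filter.

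Of 13 adaptor and RAS exchange genes tested, 2 were called higher and 1 lower, and of 9 genes for RAS proteins and their GTPase activators 2 were called lower, where 8.41% of all genes were called higher and 7.83% lower. *Grb2* (log2 fold change 0.33) and *Ptpn11* (0.47), which link receptors to RAS, were called higher and the RAS exchange factor gene *Sos2* (-0.40) lower, while *Shc1*, the adaptor with the highest level, was not called (-0.08). *Nras* fell from 20.2 and 23.8 FPKM under shNC to 17.4 and 16.8 FPKM under shNAT10 (log2 fold change -0.36, SE 0.11, adjusted p = 0.245 by limma), and *Lztr1*, which encodes an adaptor for RAS degradation, was called lower (-0.34). *Hras* (-0.08) did not pass the threshold. Of the 11 RAF, MEK, ERK and scaffold genes none was called, among them *Map2k1* (-0.13), *Mapk3* (0.06) and *Pebp1* (0.26), which had the highest level of the list. The mRNA level says nothing about the phosphorylation of these kinases, which was not measured in these libraries.

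Of the kinases that ERK activates, *Mknk2* was called higher (log2 fold change 0.45) and *Rps6ka1* lower (-0.37). Of the transcription factors and repressors, *Srf* fell from 14.5 and 14.4 FPKM under shNC to 11.5 and 10.8 FPKM under shNAT10 (log2 fold change -0.37, SE 0.09, adjusted p = 0.186 by limma), and *Cic* and its partner gene *Atxn1l* were not called. Of the 20 calls in these lists, 6 held with any 1 library left out, namely *Dusp1*, *Dusp2*, *Ccnd1*, *Fgf7*, *Ereg* and *Srf*. The other 14 were lost without shNAT10 replicate 1, 9 calls without shNAT10 replicate 2, 7 without shNC replicate 1 and 8 without shNC replicate 2.

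**Figure D4:**
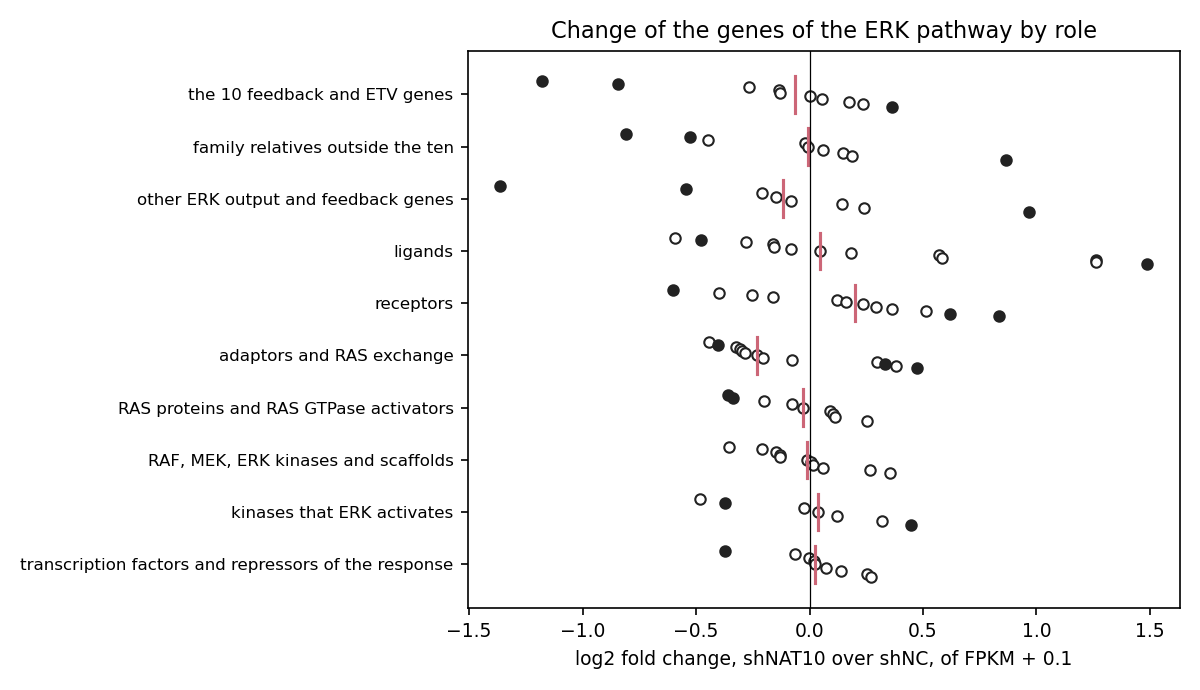
Log2 fold change of each tested gene, shNAT10 over shNC, grouped by its role in the pathway, with filled points for genes past the threshold, open points for the others and a red bar for the median of each group. The medians of the groups lie between -0.23 and 0.20, and the group of RAF, MEK, ERK kinases and scaffolds has no filled point.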

How the data were processed

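RNA-seq libraries of FGSC cultures with control or *Nat10* shRNA were analysed, with 2 libraries per group assigned by the sample labels. The authors removed rRNA (methods) or isolated mRNA (labels), aligned reads to mm10 with HISAT2 after cutadapt, and deposited FPKM per gene. The program and annotation used for counting are not given in the sources used here. A second table with the authors' own fold changes and p-values was not used. Columns of single libraries left out numbered 0.

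The 10 genes and all lists were chosen with earlier results of these data known. Groups were compared on log2(FPKM + 0.1) with limma 3.58.1 (trend, two-sided) in R 4.3.3, without covariates, and the test was checked on simulated data. Named genes were the 10 genes, *Nat10*, the relatives, of each pathway list the called genes, and the receptor, adaptor, RAS, RAF, MEK and ERK genes with the highest level of their list. Others were named after their values were seen. Fragments were recovered from FPKM with exon lengths of GENCODE M21 (GRCm38): 96.3% of values under 50 fragments came within 0.02 of a whole number. Totals of 11057922 to 14902432 fragments cover counting error only. Alternatives were other pseudocounts, filters, scalings and variance models, limma-voom, a replicate block and each library left out. Python 3.11.15 was used elsewhere. Some genes of the lists are not reported here.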

Additional observations from a re-analysis of the deposited data

How the results depend on the processing

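*Etv5* kept its direction and its call under all 14 alternatives. Among the 14, median-ratio rescaling had factors of 1.00 in each library. It repeated the main values and could not change a call. *Spry4* kept its direction under the 13 that gave it a value, a mean FPKM of at least 1 leaving it out, and *Spry2* under all 14. The count of the 10 genes called higher was 0 in place of 1 without the trend, with limma-voom and with the replicate block, and 0 to 0 with each library left out. The count called lower was 1 in place of 2 with a mean FPKM of at least 1, and 1 to 2 with each library left out. Their median of -0.06 became 0.00155 with a mean FPKM of at least 1, -0.0190 with the same FPKM total without rRNA-related loci and -0.00700 with the same total of protein-coding fragments. Leaving out each library gave -0.13 to 0.0178. These scalings moved the median of all genes to 0.05 and 0.06. *Nat10* ranged from -1.35 to -0.83. All genes called higher numbered 1108 to 1734 and lower 899 to 1659 with each library left out, against 1691 and 1576, the lowest both without shNAT10 replicate 1. All genes with an adjusted p under 0.05 numbered 88, 0 to 296 in the other limma fits and 1582 by limma-voom. Pathway genes called higher numbered 15 by limma-voom in place of 9, and 4 to 10 with each library left out. Those called lower numbered 5 without the trend in place of 11, and 3 to 8 with each library left out. With each library left out, signs changed only among uncalled genes, for *Dusp4* (-0.289 to 0.0242, above 0 without shNC replicate 2), *Dusp5* (-0.0521 to 0.0552, below 0 without shNC replicate 1, at -0.00829, and without shNAT10 replicate 2), *Spred2* (-0.158 to 0.269, below 0 without shNC replicate 1 or shNAT10 replicate 1) and *Etv4* (-0.270 to 0.0149, above 0 without shNC replicate 1). The causes were not tested. Of the 10 genes, 0 passed an adjusted p of 0.05 in every limma fit and 2 by limma-voom. The replicate numbers of the labels did not pair the libraries, since deviations of same-numbered libraries had r = 0.00711 across genes, and the block moved no other call among the 10 genes. The fewest fragments of the 10 genes were those of *Spry4*, *Spry1* and *Spred2*, with 192, 213 and 382 in all.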
